A study of Mus musculus with 6 samples.

Results

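Signals of the early B cell factor genes Ebf1, Ebf2 and Ebf3 were examined in the brains of mouse embryos from diabetic and normal mothers. Every probe set annotated to 1 of these genes was included, which gave 9 probe sets, 3 per gene, of 22626 that were not array controls, for 3 of 12393 annotated genes. The family was chosen by the diabetic-against-control change of Ebf2 on these arrays, which was already known, so the changes of all 9 probe sets are given as a description, without p-values. The fourth family gene, Ebf4, had 0 annotated probe sets.

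The data comprised 6 Affymetrix arrays, each hybridized with RNA from the brain of an embryo of Swiss Albino mice at stage E11.5. The 3 control brains came from embryos of normal mice, and the 3 others from embryos of mothers made diabetic with streptozotocin (STZ), which destroys the beta cells of the pancreas. The brains of the diabetic group were malformed ones, so the mother's diabetes and the malformation itself cannot be told apart, and neither the kind of malformation nor the litters are given in the sources used here. Control and diabetic replicates 1 and 2 formed a first value table on the MOE430A chip, and replicate 3 of each group formed a second one on the Mouse430A_2 chip. Because the tables differed in chip type and scanner, every difference was taken within a table.

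Ebf proteins are transcription factors that pair through a helix-loop-helix region and bind DNA through a zinc-containing domain. In the developing brain they are switched on as progenitors leave the cell cycle and become neurons, downstream of proneural factors such as the neurogenins. Ebf1 is best known for committing cells to the B lymphocyte lineage and also acts in striatal and facial motor neurons. Ebf2 and Ebf3 mark Cajal-Retzius cells, the first-born neurons at the cortical surface, and Ebf2 is needed in cerebellar Purkinje cells. All of these genes are also active outside the nervous system, among other places in mesenchyme.

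Proneural factors bind E-boxes, so the 250 bases before annotated gene starts are shown for Ebf1 and Ebf3, from the RefSeq table of build GRCm38.p6. They were searched on both strands for the E-box CANNTG and for the Ebf palindrome, TCCC and GGGA with any pair of bases between them. Capitals mark an E-box, and no match to the palindrome was found in these windows. An entry was available for 2 starts of Ebf1 and 1 start of Ebf3, and Ebf2 had none. The window at the upstream Ebf1 start was searched but is not printed.

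Ebf1, downstream start, chr11:44619978-44620227, plus strand: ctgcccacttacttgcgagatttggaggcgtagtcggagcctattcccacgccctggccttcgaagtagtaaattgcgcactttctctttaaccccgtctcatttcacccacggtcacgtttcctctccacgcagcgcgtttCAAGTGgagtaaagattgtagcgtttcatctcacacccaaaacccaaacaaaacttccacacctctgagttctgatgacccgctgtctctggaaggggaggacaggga

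Ebf3, chr7:137314446-137314695, minus strand: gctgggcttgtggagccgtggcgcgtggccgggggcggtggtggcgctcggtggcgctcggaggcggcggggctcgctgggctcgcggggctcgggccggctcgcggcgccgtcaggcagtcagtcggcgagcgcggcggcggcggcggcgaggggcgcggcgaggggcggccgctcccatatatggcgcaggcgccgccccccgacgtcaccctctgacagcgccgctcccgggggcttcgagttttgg

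The downstream Ebf1 window held 1 E-box, and the Ebf3 window held 0, as did the window at the upstream Ebf1 start at chr11:44617850-44618099. Among 32851 promoters of the same length, 66.2% held an E-box and 0.779% held the palindrome. The windows differed in base composition, with 80% G and C before Ebf3 and 52% and 40% before the Ebf1 starts. A match of letters describes the window and does not show a bound site.

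Median deposited signals ran from 210 to 227 on the 4 arrays of the first table and were 165 and 173 on those of the second. Across the 14915 probe sets tested, signals correlated at 0.935 to 0.972 between arrays that shared a table and at 0.870 to 0.925 between the others. The 6 arrays were run on 6 days, and in the first table both control arrays were run before both diabetic arrays, so run order and group cannot be told apart there. In the second table the diabetic array was run first. All 15 listed progenitor genes and all 23 pan-neuronal genes on the arrays reached the mean signal of 100 over the 6 arrays required for testing. Taken by group, the mean was at least 100 for 14 of the 15 progenitor genes in controls and 15 in diabetic brains, and for all 23 pan-neuronal genes in both. All 9 Ebf probe sets reached it too. Over all probe sets, limma with Benjamini-Hochberg adjustment called 0 of 14915 (0%) at an adjusted p under 0.05, with a smallest adjusted p of 0.307, and 1081 (7.25%) had an unadjusted p under 0.05. None of the 9 Ebf probe sets was among those called.

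Ebf2 had the lowest changes of the family, on 2 of its 3 probe sets. Probe set 1418494_at had signals of 619, 297 and 825 on control arrays 1, 2 and 3, against 174, 170 and 844 on diabetic arrays 1, 2 and 3. Both diabetic arrays of the first table lay below both of its controls, while in the second table the arrays were almost level. Its log2 change, on the log2(signal + 32) scale used throughout, was -0.78 ± 0.31 (SE, n = 3 per group), made of a first-table value of -1.18 and a second-table value of 0.032. The controls of the first table were themselves far apart on this probe set, by 0.98 on the log2 scale, and only 2.13% of all probe sets had controls at least as far apart. Without control replicate 1 the change was -0.38. In whole-brain RNA, fewer cells that express the gene and less RNA per cell cannot be told apart.

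Probe set 1449102_at of Ebf2 gave signals of 291, 192 and 587 in controls, against 138, 76.8 and 346 in the diabetic group, in the order of the replicates. Here each diabetic array lay below the control arrays of its table, in both tables. The log2 change was -0.89 ± 0.23 (SE, n = 3 per group), with table values of -0.98 and -0.71. Leaving out any 1 array kept it between -1.05 and -0.68. The third probe set, 1449101_at, had 288, 309 and 369 in controls and 352, 155 and 394 in the diabetic group. Its groups overlapped, since only diabetic replicate 2 lay below the controls of its table. The log2 change of -0.17 ± 0.26 became 0.16 without that array. All 3 probe sets were designed on the same transcript record, so they measure the same gene and are not independent replicates.

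Ebf3, a factor found in newborn neurons along the neural tube, had fitted changes below 0 on its 3 probe sets, with diabetic replicate 2 the lowest first-table array on each. Probe set 1452751_at gave signals of 1183, 970 and 1348 in controls 1, 2 and 3, against 875, 649 and 978 in diabetic brains 1, 2 and 3. The diabetic arrays lay below the controls of their table in both tables. The change was -0.48 ± 0.18 (SE, n = 3 per group), with -0.49 and -0.45 in the first and second tables, and leaving out any 1 array kept it between -0.59 and -0.35.

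Probe set 1460666_a_at of Ebf3 had signals of 1182, 1060 and 980 in controls and 838, 689 and 1096 in the diabetic group. It was lower on both diabetic arrays of the first table and higher on that of the second, with log2 changes of -0.54 and 0.16 by table and -0.31 ± 0.20 (SE, n = 3 per group) overall. Probe set 1428349_s_at, whose suffix marks probes that may match more than a single transcript, had 1101, 987 and 1342 in controls and 1044, 678 and 1609 in the diabetic group. Diabetic replicate 1 lay between the controls of its table, so the groups overlapped. The change was -0.11 ± 0.21, with table values of -0.30 and 0.26, and it was 0.11 without diabetic replicate 2.

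Ebf1 had the first-table changes closest to 0 within the family and the lowest second-table change of any Ebf probe set. Signals of probe set 1448293_at were 196, 206 and 623 in controls 1, 2 and 3, against 186, 185 and 314 in diabetic brains 1, 2 and 3. The diabetic arrays lay below the controls in both tables, but only narrowly in the first, at 186 against 196. The log2 change was -0.37 ± 0.20 (SE, n = 3 per group), with a first-table value of -0.098 and a second-table value of -0.92. Without either array of the second table the value was the -0.098 of the first.

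Probe set 1416302_at of Ebf1 had signals of 211, 250 and 320 in controls and 232, 187 and 228 in the diabetic group. Diabetic replicate 1 lay between the controls of its table. Its log2 change was -0.23 ± 0.17 (SE, n = 3 per group), with table values of -0.12 and -0.44. Probe set 1416301_a_at had 194, 216 and 458 in controls and 298, 142 and 364 in the diabetic group. Diabetic replicate 1 was the highest and diabetic replicate 2 the lowest array of the first table, and the change of -0.091 ± 0.24 became 0.14 without diabetic replicate 2. First-table signals of Ebf1, 142 to 298, lay around the array medians, and how the software treated background at such signals is not given in the sources used here.

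**Figure D1:**
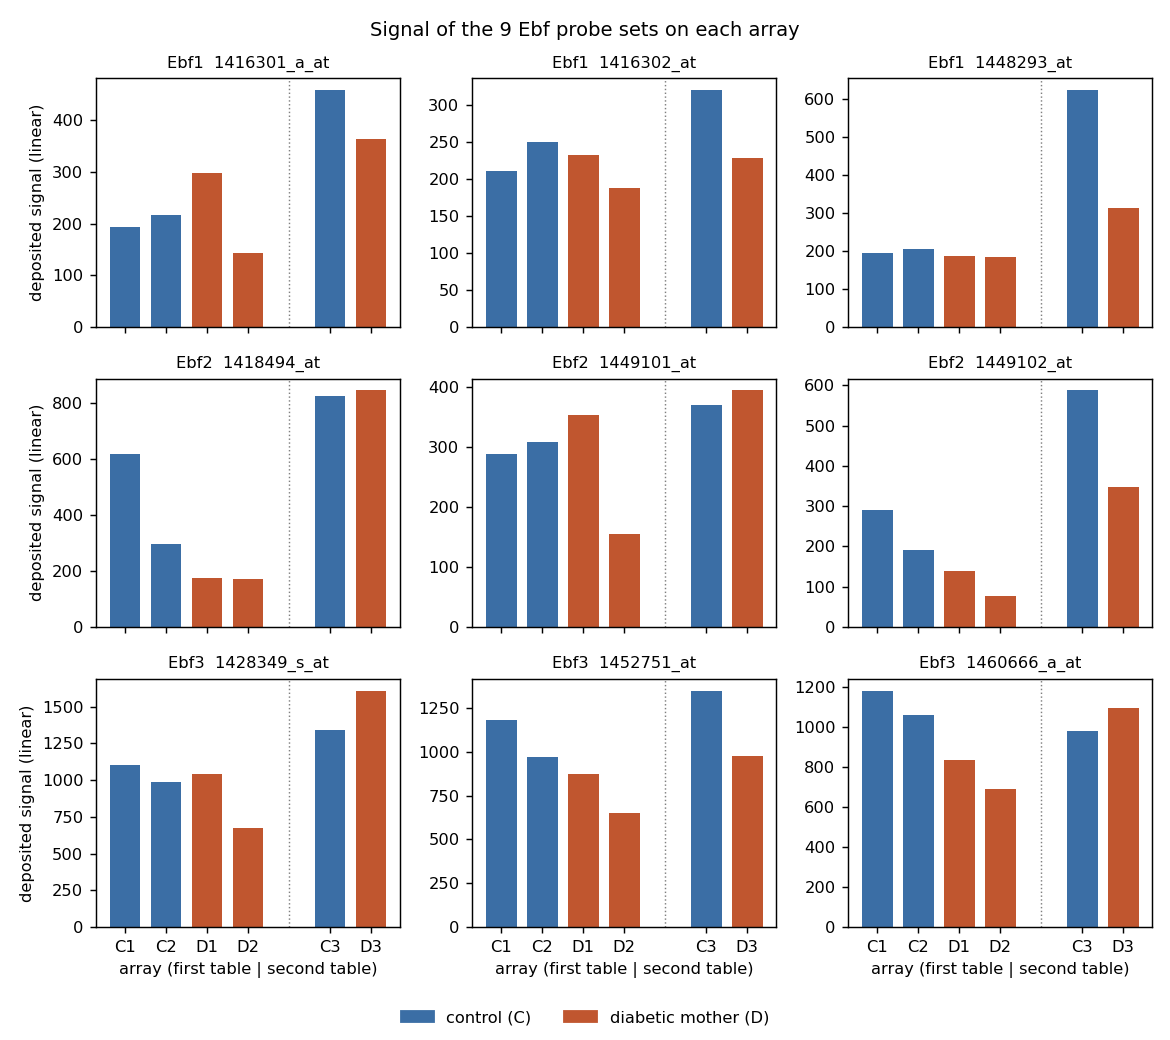
Deposited linear signal of each of the 9 Ebf probe sets (one panel each) on control arrays C1 to C3 and diabetic arrays D1 to D3, with a dotted line between the first and the second value table. Diabetic replicate 2 (D2) is the lowest of the 4 first-table arrays in all 9 panels, and D3 is below C3 in 5 of them.

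Across the family, all 9 probe sets had a fitted log2 change below 0, where 48.7% of all probe sets did. The median change was -0.78 over the Ebf2 probe sets, -0.31 over those of Ebf3 and -0.23 over those of Ebf1, against 0.0067 over all probe sets. Diabetic arrays lay below the controls of their table, without overlap in either table, for 3 of 9, 1 from each gene, beside 10.7% of all probe sets. They lay above for 0 of 9, beside 11%. Because the family was chosen with this contrast known, these shares carry no weight as evidence.

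Agreement between the tables differed by gene. Changes were below 0 in both tables for 2 of 3 Ebf1 probe sets, 1 of 3 for Ebf2 and 1 of 3 for Ebf3, or 4 of 9 in all, beside 24.7% of all probe sets. The same 4 were the only ones whose tables shared a sign, in either direction, where 51.5% of all probe sets did. First-table changes were below 0 for 8 of 9, the exception being 1416301_a_at of Ebf1 with 0.017, and second-table changes for 5 of 9. The second-table median was -0.44 for Ebf1, 0.032 for Ebf2 and 0.16 for Ebf3, whereas the first-table medians were -0.098, -0.98 and -0.49. By these medians Ebf2 and Ebf3 had their low values in the first table, and Ebf1 in the second. The second table has 1 array per group, so its differences have no replicate check.

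On some probe sets a single array bore much of the first-table difference, and on others both diabetic arrays were alike. Diabetic replicates 1 and 2 lay 0.22 and -0.82 from the control mean on Ebf2 1449101_at. They lay -1.17 and -1.20 from it on Ebf2 1418494_at, and -0.092 and -0.10 on Ebf1 1448293_at. Diabetic replicate 2 was the lowest of the 4 arrays of its table for 9 of 9 Ebf probe sets, beside 32.8% of all probe sets. On diabetic replicate 1, 5 of 9 were below the control mean of their table, beside 48.2% of all probe sets. Without diabetic replicate 2 the fitted change was below 0 for 6 of 9, beside 46%, with medians of -0.65 for Ebf2, -0.16 for Ebf3 and -0.18 for Ebf1. The 2 probe sets of Ebf2 with the lowest values kept -0.65 and -0.68 without it. Fits without this array draw on both tables and give the second table more weight.

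**Figure D2:**
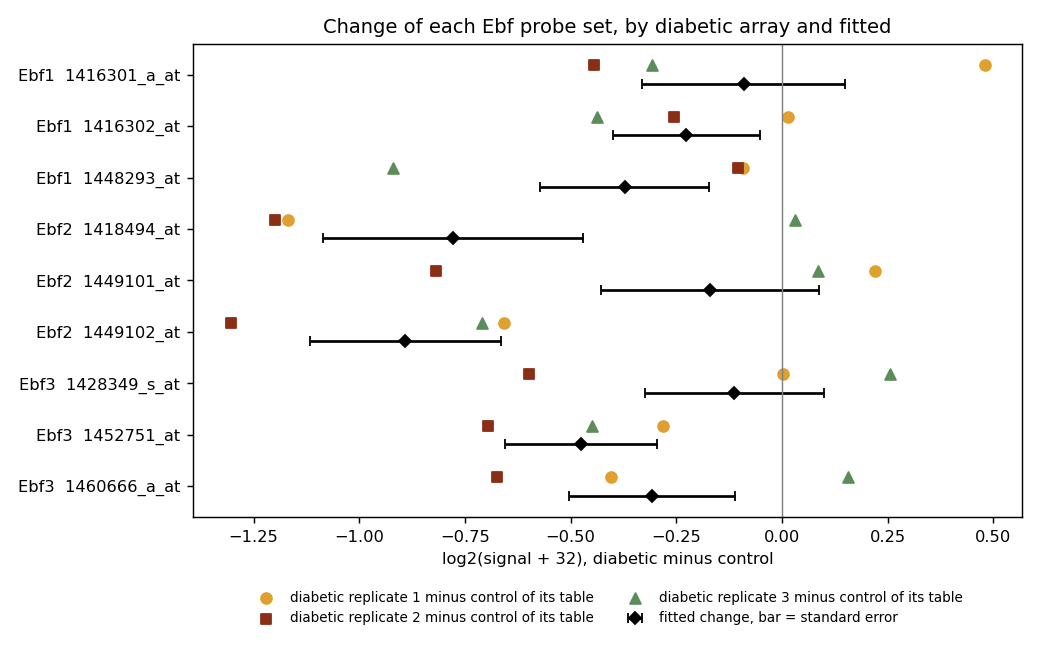
Difference of each diabetic array from the control mean of its table (coloured symbols) and the fitted change with its standard error (black), on the log2(signal + 32) scale, for the 9 Ebf probe sets. Fitted values lie between -0.89 and -0.091, and the symbols of diabetic replicate 3 lie on both sides of 0.

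Probe sets of the same gene were compared by the root mean square difference of their log2 signals over the 6 arrays, each centred on the mean of its table. The 3 Ebf3 probe sets were 0.14 to 0.23 apart and the Ebf1 probe sets 0.17 to 0.32. Those of Ebf2 were 0.32 to 0.56 apart, with 1449101_at standing off from the other two. Such distances grow with the size of a probe set's own differences, so they do not rank the genes by agreement. From the Ebf2 probe set 1418494_at, 296 of the 14914 other probe sets were closer than 1449102_at, and 6186 were closer than 1449101_at. From Ebf3 1428349_s_at, 819 were closer than 1460666_a_at and 4353 closer than 1452751_at. From Ebf1 1416301_a_at, 894 were closer than 1416302_at and 6624 closer than 1448293_at. From 1449101_at, in turn, the Ebf3 probe set 1428349_s_at was 0.15 away and the Ebf1 probe set 1416301_a_at 0.18, nearer than either probe set of its own gene at 0.42 and 0.56. Replicates of the same group told the Ebf2 probe sets apart as well. The first-table controls differed by 0.98 on 1418494_at, 0.53 on 1449102_at and 0.091 on 1449101_at, while the first-table diabetic arrays differed by 0.030, 0.65 and 1.04 on the same probe sets.

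**Figure D3:**
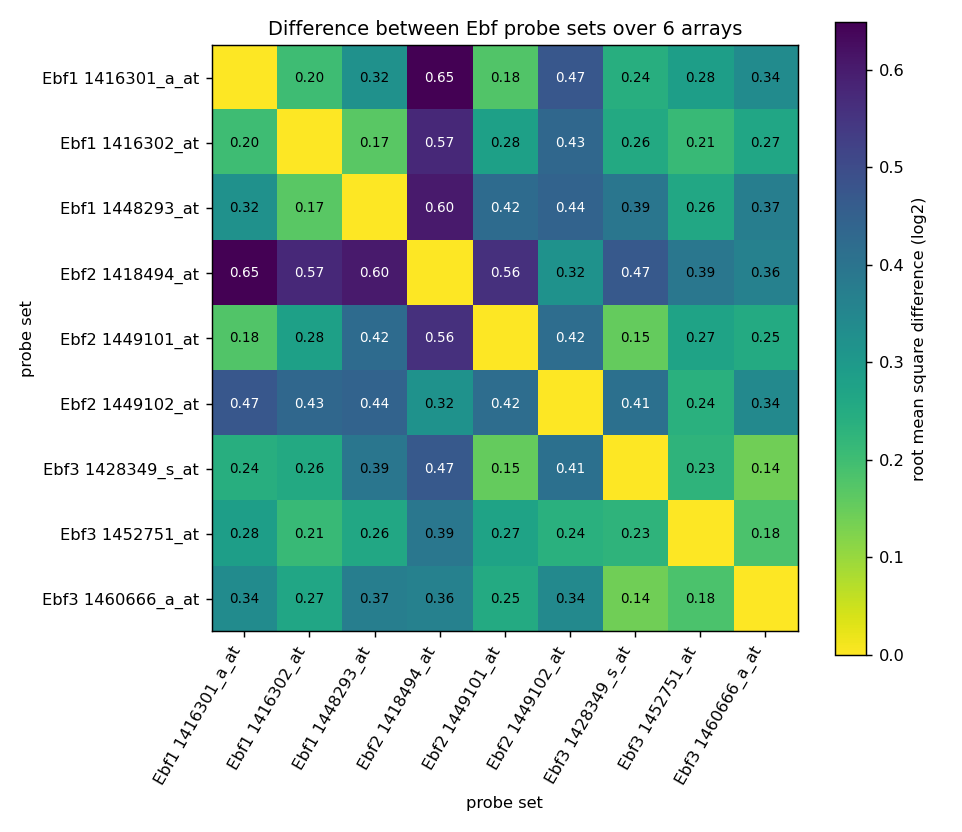
Root mean square difference in log2 signal between each pair of Ebf probe sets over the 6 arrays, after centring within each value table. Darker cells are farther apart, and the Ebf2 probe set 1418494_at is 0.32 to 0.65 from every other Ebf probe set.

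The genes whose pattern over the 6 arrays was closest to the brightest Ebf3 probe set, 1428349_s_at, were the transcriptional corepressor Drap1 at a root mean square difference of 0.013, Sfxn4 at 0.0245, the ubiquitin-conjugating enzyme gene Ube2g2 at 0.0264, Rabgap1 at 0.0265 and Letm1 at 0.0285. Closest to Ebf1 1416301_a_at were the myosin gene Myo1c at 0.0487, Ap1ar at 0.0521, Vamp2, a protein of synaptic vesicles, at 0.0524, Traf6 at 0.0575 and Elavl2, a neuronal RNA-binding protein, at 0.0663. Ebf2 1418494_at had no neighbour as close: the nearest were Gsto1 at 0.128, Polr3k at 0.135, the transcription factor Sox6 at 0.142, Bad at 0.149 and Kifap3 at 0.154. For each paralog these 5 genes were closer than any other probe set of the same paralog. With 6 arrays such closeness describes the arrays and is no sign of a shared function.

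Proneural and newborn neuron factors, which act before or beside the Ebf genes, had 14 of 18 genes on the arrays tested. By group, 15 of the 18 averaged a signal of at least 100 in controls and 13 in diabetic brains. The filter thus favoured genes high in controls, and Neurod4, with a change below 0, reached that mean in controls only. Of the 14, limma called 0 after adjustment, 10 had a change below 0, beside 47.8% of all genes, and the median was -0.13. Insm1, a zinc finger factor of newborn neurons, had signals of 989, 844 and 744 in controls, against 650, 322 and 486 in the diabetic group. Its diabetic arrays lay below the controls of their table throughout, and its log2 change was -0.82 ± 0.25 (SE, n = 3 per group), or -0.52 without diabetic replicate 2. Myt1, another zinc finger factor, was the second gene of the 14 without overlap, with -0.38 ± 0.18, and 10.6% of all genes lay below the controls in this way.

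The neurogenin genes Neurog1 and Neurog2, activators of neuronal fate, had values below 0 in the first table and above 0 in the second, as did Ebf2 1418494_at. Neurog2 had 468, 660 and 624 in controls and 421, 148 and 924 in the diabetic group, with a first-table change of -1.04 and a second-table change of 0.54. Neurog1 had -0.60 and 0.030, Neurod4 -0.46 and -0.23, and Neurod1 -0.51 and -0.62. Diabetic replicate 2 was the lowest array of its table for each of these 4 genes. Nhlh1, Cbfa2t2, Dll3 and Hes6 had fitted changes between -0.15 and -0.093, and Atoh1, Neurog3, Cbfa2t3 and the Notch ligand gene Dll1 between 0.030 and 0.15. Without diabetic replicate 2 the list's median was 0.039, with 5 of 14 genes below 0.

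Zfp423 and Zfp521 encode zinc finger proteins that bind Ebf factors and alter their activity. Zfp521 had signals of 1231, 1126 and 1239 in controls and 1132, 1050 and 1380 in the diabetic group, a change of -0.021 ± 0.16 (SE, n = 3 per group). Zfp423 had 585, 710 and 338 in controls and 748, 923 and 226 in the diabetic group, with table values of 0.35 and -0.52. E proteins, the general partners of proneural factors, differed in sign: Tcf4 lay below the controls in both tables with -0.57 ± 0.19, Tcf3 above them in both with 0.32 ± 0.18, and Tcf12 had -0.27 ± 0.18. Runx1, which acts with Ebf1 in blood cells, had 0.16 ± 0.21. Of the 6 genes in this list, 3 were below 0, beside 47.8% of all genes, 3 were above, and 0 were called by limma.

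Genes of Cajal-Retzius and early cortical neurons, cells that Ebf2 and Ebf3 mark, had 6 of 8 tested members below 0, beside 47.8% of all genes, and a median of -0.15. That median was -0.29 without control replicate 1 and -0.078 without diabetic replicate 2. Reln, the secreted signal of Cajal-Retzius cells, had signals of 432, 404 and 261 in controls and 284, 277 and 243 in the diabetic group, below the controls in both tables, and its fitted change was -0.38 ± 0.17 (SE, n = 3 per group). Lhx1, a LIM homeodomain factor, had -0.75 ± 0.37, which was -0.24 without diabetic replicate 2, whose signal of 58.6 stood against 242 to 290 in the first-table controls. On the other side, Zic2 had 0.32 ± 0.23 and Lhx5 0.11 ± 0.19. Limma called 0 of the 8, and 2 lay below the controls in both tables without overlap, beside 10.6% of all genes.

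Pan-neuronal genes had 20 of 23 tested members below 0, beside 47.8% of all genes, and a median of -0.22, composed of -0.50 by the first table and 0.27 by the second. Ina, a neurofilament protein, had -0.76 ± 0.25 (SE, n = 3 per group) and Rtn1, a reticulon of neurons, -0.65 ± 0.31, while Cntn2, an axonal adhesion molecule, had 0.30 ± 0.22 and Elavl3 0.13 ± 0.18. Ina had -0.43, Rtn1 -0.30, Cntn2 0.50 and Elavl3 0.29 without diabetic replicate 2. Limma called 0 of 23, and 4 lay below the controls in both tables, beside 10.6% of all genes. Their summed signal was 25910 to 28470 on the control arrays and 15180 to 32380 on the diabetic arrays. By array, their medians on diabetic replicates 1 to 3 were -0.30, -0.69 and 0.27, beside -0.66, -1.20 and 0.032 for Ebf2, -0.28, -0.67 and 0.16 for Ebf3, and 0.014, -0.26 and -0.44 for Ebf1. Without diabetic replicate 2 the pan-neuronal median was -0.017, with 13 of 23 genes below 0. The part of these neuronal genes in the Ebf values was not tested.

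Motor and striatal neuron genes, chosen because Ebf1 acts in those cells, had 7 of 10 tested members below 0, beside 47.8% of all genes, and a median of -0.036. Zfp503, a zinc finger gene of the developing striatum, had signals of 639, 493 and 1289 in controls and 463, 210 and 601 in the diabetic group, below the controls in both tables, with -0.87 ± 0.26 (SE, n = 3 per group). Gad1, the enzyme of GABA synthesis, had -0.58 ± 0.27 (-0.23 without diabetic replicate 2) and its sister enzyme gene Gad2 0.30 ± 0.17, and Epha4, an ephrin receptor of motor axons, had 0.42 ± 0.19. Neural progenitor genes had 8 of 15 below 0 and a median of -0.069. They included Fabp7 at -0.62 ± 0.23, Notch1 at -0.22 ± 0.26, Sox1 at 0.63 ± 0.17 and Msi1 at 0.73 ± 0.45. By group, Sox1 reached the mean signal required for testing in the diabetic group only. Its signals there were 179.8, 160.3 and 87.2, against 83.0, 112.5 and 47.3 in controls, so it passed the filter through the group where it was high. Limma called 0 genes of either list. Without diabetic replicate 2 the progenitor median was 0.087, with Fabp7 at -0.37 and Notch1 at 0.087, and the median was 0.10 without control replicate 2 and 0.031 without control replicate 1.

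**Figure D4:**
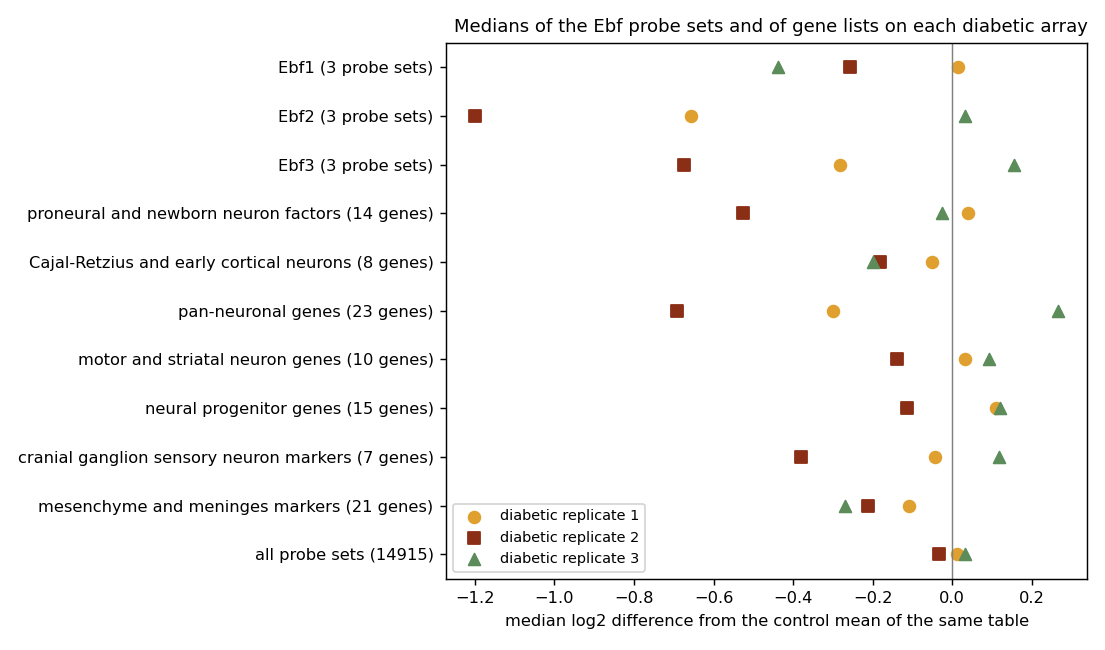
Median log2 difference of each diabetic array from the control mean of its table, for the 3 probe sets of each Ebf gene, for 7 gene lists and for all 14915 probe sets. On diabetic replicate 2 the medians of Ebf2 (-1.20), Ebf3 (-0.67) and the pan-neuronal genes (-0.69) lie farthest to the left, and on diabetic replicate 3 those of Ebf1 (-0.44) and mesenchyme (-0.27).

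Mesenchyme and meninges, another place of Ebf transcription, had markers with medians below 0 on every diabetic array. Of 21 tested markers, 18 were below 0, beside 47.8% of all genes, 6 lay below the controls in both tables, beside 10.6%, and 0 were called by limma, with a median of -0.22. All 21 on the arrays were tested. By group, 21 averaged a signal of at least 100 in controls and 20 in diabetic brains, so the remaining marker passed the filter through the controls. Medians on diabetic replicates 1 to 3 were -0.11, -0.21 and -0.27, and the summed signal was 23300 to 26810 on control and 20880 to 22300 on diabetic arrays. Foxd1 had -0.63 ± 0.22 (SE, n = 3 per group) and Postn, the matrix protein periostin, -0.56 ± 0.20, against 0.26 ± 0.19 for Prrx2 and 0.22 ± 0.19 for Fn1. No marker was at 0 on any array. Without diabetic replicate 2, 18 of 21 were below 0 with a median of -0.23. The part of mesenchyme in the Ebf values, and in those of Ebf1 in particular, was not tested.

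Sensory neurons of the cranial ganglia also express Ebf genes. Their markers had 6 of 7 tested genes below 0, a median of -0.13 (-0.059 without diabetic replicate 2) and a summed signal of 2090 to 2525 on control and 1841 to 2317 on diabetic arrays. Sncg had -0.51 ± 0.31 (SE, n = 3 per group), with table values of -1.02 and 0.50, Ntrk2 had -0.26 ± 0.18, and Tlx3 had 0.0089 ± 0.15. Sncg had -0.19 and Ntrk2 -0.14 without diabetic replicate 2. Genes that Ebf factors serve in other tissues were mostly dim here. Of 10 B lymphocyte genes on the arrays, 8 had a mean signal under 100, as did 7 of 8 adipose genes and 3 of 4 olfactory sensory neuron genes. The tested ones were Igll1 with 0.19 ± 0.20, Blk with 0.25 ± 0.20, Lpl with -0.16 ± 0.23 and Adcy3 with -0.087 ± 0.16, and limma called 0 of them.

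Regional and other cell type markers varied without a call in limma. Brain region markers had 6 of 9 below 0, beside 47.8% of all genes, and a median of -0.020. Dlx1, a ventral forebrain factor, had -0.58 ± 0.20 (SE, n = 3 per group), Hoxa2 -0.29 ± 0.22, Otx2 0.076 ± 0.26 and Fgf8 0.50 ± 0.21. Fgf8 reached the mean of 100 in the diabetic group only, with signals of 195, 166 and 85.2 there and 84.9, 159 and 51.9 in controls. Hoxa2 had -0.12 and Otx2 -0.14 without diabetic replicate 2. Of 11 muscle markers on the arrays, 7 had a mean signal under 100. By group, 4 reached it in controls and 2 in diabetic brains, so the filter favoured markers high in controls. The 4 tested muscle markers had 3 below 0 with a median of -0.44, given as a description only. Among them were Actc1 at -0.56 ± 0.27 and Myod1 at -0.50 ± 0.18, beside Des at 0.22 ± 0.18. Their median was -0.12 without control replicate 1 and -0.23 with array weights. The median was -0.26 for 6 macrophage markers, 0.014 for 9 endothelial, 0.095 for 7 erythroid and -0.029 for 8 surface epithelium markers. Without diabetic replicate 2 the macrophage median was -0.019, and in the first table alone the endothelial, epithelial and brain region medians were -0.13, 0.13 and 0.20. Summed signals of the macrophage, endothelial, erythroid and epithelial lists overlapped between the groups, and no marker of these lists was at 0 on any array.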

How the data were processed

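Brain RNA of 6 embryos was measured on 6 arrays. The authors deposited linear intensity values, 1 signal per probe set and array, in 2 value tables, and the submitters' processing notes name GCOS; its version and algorithm are not given in the sources here. Per the file headers, the chip type and scanner differed between the tables. Run settings, other text deposited with each array, gave the chip type and run order. Each array was brought to the same trimmed mean, 500 with 2% trimmed at each end, a shift of at most 0.0363%. Changes are on the log2(signal + 32) scale, which understates those of dim genes. Of 22626 probe sets, 14915 averaged a signal of 100 or more and were fitted in limma 3.58.1 (R 4.3.3; lmFit, eBayes, two-sided, Benjamini-Hochberg, threshold 0.05) with a block for the value table. The fit left 3 residual degrees of freedom. Precision is set by the few arrays, and standard errors had a median of 0.18. P-values measure the spread between these arrays, whose litters are not known. For lists, a gene was represented by its brightest probe set (8631 genes). Symbols came from the platform annotation, where 20351 of 20380 probe sets with 1 gene matched a RefSeq identifier.

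The members and gene lists were chosen with earlier results of these data known. The text names all Ebf probe sets, the 5 genes closest to the brightest probe set of each paralog, all tested proneural factors, Zfp423 and Zfp521, and from each list up to 2 tested genes with the largest increase and 2 with the largest decrease. For the endothelial, macrophage, erythroid and epithelial lists medians stand in place of these genes. The fit was tested on simulated data. Alternatives were 2 other pseudocounts, no filter, quantile normalization, array weights, other blocks, the first table alone, 1 probe set per gene, and leaving out each array.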

Additional observations from a re-analysis of the deposited data

How the results depend on the processing

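Signs were stable for 6 of 9 Ebf probe sets under all 14 alternatives run, but sizes were less so. Several changes moved by more than their standard error when 1 array was left out. Ebf2 1418494_at, at -0.78 ± 0.31, ran from -1.18 to -0.38. Ebf1 1448293_at, at -0.37 ± 0.20, ran from -0.47 to -0.098. Not all 14 alternatives are separate checks. Dropping the filter, dropping the block or blocking on replicate must return the same change in this balanced design. Leaving out either replicate 3 gives the same value as the first table alone. The exceptions in sign began with Ebf1 1416301_a_at, which was 0.14 without diabetic replicate 2, 0.11 with array weights and 0.017 in the first table alone. The others were Ebf2 1449101_at (0.16) and Ebf3 1428349_s_at (0.11), both without diabetic replicate 2. The count of probe sets called by limma was 0 in the fit reported and 2 in the first table alone, and 0 to 2 when any 1 array was left out, with 2 without either replicate 3. With the replicate number as a block (replicate block) the count was 0, and the Ebf changes were the same values, which the balanced design fixes in advance. Replicate 3 of each group shared a chip type and a value table. In the first table the deviations of the first replicates correlated at 0.016 across probe sets. With so few arrays and unknown litters, that value cannot settle whether same-numbered arrays were paired. Probe sets without overlap numbered 3239, 5206 to 6317 when any 1 array was left out, where fewer arrays must be separated, and 1891 with 1 probe set per gene, where fewer were tested. List medians under these alternatives were added after seeing the data. For dim probe sets, signal over background limits what the values can show.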
